A study of Mus musculus with 6 samples.

Results

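The 10 genes En1, En2, Pax2, Pax5, Pax7, Foxa1, Foxa2, Lmx1a, Lmx1b and Pitx3 encode transcription factors that pattern the midbrain and isthmus and specify dopamine neurons. They were chosen by symbol, and all 10 were found among the 24391 gene symbols of the deposited count table. Sequenced RNA came from hemibrains of mouse pups on the day of birth (postnatal day 0). The null group (n = 3) carries the genotype Celf2 -/-, and the heterozygous group (n = 3) carries Celf2 +/-, so every pup carried at least 1 mutant allele of the gene for the RNA-binding protein CELF2, and the comparison is with heterozygous and not with wild-type pups. Replicates carry the pup numbers of the labels, 2, 4 and 10 in the null group and 6, 7 and 11 in the heterozygous group. The labels give neither litter nor sex nor strain, so p-values measure the spread between these samples.

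The midbrain and the anterior hindbrain are set up around the isthmus, a signalling centre at their boundary that secretes FGF8 and WNT1. Pax2, Pax5, En1 and En2 are expressed across this boundary in the embryo and maintain one another and these signals, while Pax7 marks the dorsal midbrain. Foxa1, Foxa2, Lmx1a and Lmx1b act in the floor plate, from which midbrain dopamine neurons arise, and En1, Lmx1b, Foxa2 and Pitx3 remain active in those neurons after they have formed. Outside the midbrain, Lmx1b is expressed in serotonergic neurons, Lmx1a in the roof plate and its derivatives, and Pax2 in interneurons of the hindbrain, cerebellum and spinal cord.

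Library totals ran from 28831997 to 36531980 counts. Libraries differed in ways that the genotype labels do not give. Null replicate 2 held 11.8% of its counts on the ribosomal RNA precursor Rn45s, against 0.194% to 1.27% in the other 5 libraries. The summed level of 39 Hox genes, which are expressed in the hindbrain and spinal cord and not in the midbrain, was 3.98, 7.79 and 3.91 CPM in null replicates 2, 4 and 10, against 22.0, 204 and 11.0 CPM in heterozygous replicates 6, 7 and 11. The Hox sums did not overlap between the groups, so their difference cannot be told apart from that of genotype. CPM here are read counts per library size, scaled with TMM factors. Celf2 was at 448, 390 and 331 CPM in null replicates 2, 4 and 10, against 459, 403 and 362 CPM in heterozygous replicates 6, 7 and 11, so the gene total does not separate the genotypes. The labels do not say which part of the gene is altered, and every direction rests on the labels. The neuronal genes Tubb3, Stmn2 and Snap25 had the highest levels per kilobase among 18 genes used to check the tissue.

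Promoter sequences were taken from RefSeq on build GRCm38.p6, which held entries for 9 of the 10 genes, all but En2. The bases shown run from 250 to 51 before the annotated start, 5′ to 3′ on the gene's strand, and for Foxa2 before its outermost start. En1, Pax5, Foxa2 and Pitx3 are shown because their levels in null replicate 2 lay below 20% of the median of the other 5 libraries. That threshold was chosen after the values were seen, and En2, without an entry, lay below it too. Foxa1 is shown as the forkhead gene whose level was less low in null replicate 2. Capitals mark the core TAAT that homeodomains contact, read on both strands, and the forkhead motif TGTTTAC or its reverse complement GTAAACA.
En1 (chr1:120602237-120602436, plus strand): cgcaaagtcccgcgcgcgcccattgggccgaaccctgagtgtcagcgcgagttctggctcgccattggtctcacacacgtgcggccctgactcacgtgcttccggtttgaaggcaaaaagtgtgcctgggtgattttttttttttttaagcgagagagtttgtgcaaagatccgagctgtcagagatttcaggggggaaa
Pax5 (chr4:44710745-44710944, minus strand): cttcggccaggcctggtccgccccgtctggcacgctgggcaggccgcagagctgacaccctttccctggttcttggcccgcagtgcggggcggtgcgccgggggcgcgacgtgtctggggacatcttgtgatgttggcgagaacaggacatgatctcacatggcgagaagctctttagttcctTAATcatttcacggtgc
Foxa2 (chr2:148047020-148047219, minus strand): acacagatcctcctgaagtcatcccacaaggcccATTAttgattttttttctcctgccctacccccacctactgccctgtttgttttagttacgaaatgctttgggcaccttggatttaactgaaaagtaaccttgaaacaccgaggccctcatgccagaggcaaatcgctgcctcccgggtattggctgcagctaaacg
Pitx3 (chr19:46148376-46148575, minus strand): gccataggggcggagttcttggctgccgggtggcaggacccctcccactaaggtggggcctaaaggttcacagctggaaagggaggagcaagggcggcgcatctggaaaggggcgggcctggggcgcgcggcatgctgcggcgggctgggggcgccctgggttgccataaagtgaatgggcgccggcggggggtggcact
Foxa1 (chr12:57546162-57546361, minus strand): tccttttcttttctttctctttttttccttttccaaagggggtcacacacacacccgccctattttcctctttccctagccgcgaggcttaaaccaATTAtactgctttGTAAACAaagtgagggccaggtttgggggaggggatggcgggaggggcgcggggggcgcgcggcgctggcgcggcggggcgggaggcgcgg
In the 250 bases before the 13 annotated starts of the 9 genes, the forkhead motif occurred at 1 start, that of Foxa1, and in 3.17% of 32851 mouse promoters of the same length. The homeodomain motif TAATTA and the bicoid-type motif TAATCC, which PITX proteins bind, were in none of the 13 windows and in 4.84% and 6.25% of all promoters. The core TAAT, part of both, was in 6 of the 13 windows and in 54.9% of all promoters. A match is a description of these letters only.

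Both engrailed genes were far lower in null replicate 2 than in the other libraries. En1, which maintains midbrain dopamine neurons, was at 0.630, 6.81 and 8.06 CPM in null replicates 2, 4 and 10, against 11.0, 8.18 and 9.74 CPM in heterozygous replicates 6, 7 and 11. The null libraries all lay below the heterozygous ones, but null replicate 10 only just, and null replicate 2 lay far below every other library with 16 reads. En1 had a log2 fold change of -0.89 (SE 0.79, 95% interval -2.92 to 1.14) and did not pass edgeR's quasi-likelihood test (adjusted p = 0.894, Benjamini-Hochberg over 15925 genes). Without null replicate 2 it was -0.38 (SE 0.18, adjusted p = 0.912).

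En2, the engrailed paralog with a role in tectum and cerebellum, was at 0.985, 10.8 and 17.9 CPM in null replicates 2, 4 and 10, against 13.9, 11.8 and 16.1 CPM in heterozygous replicates 6, 7 and 11. Null replicate 10 was the highest of the 6 libraries and null replicate 2 the lowest, so the groups overlapped. The fold change was -0.48 (SE 0.92, edgeR adjusted p = 0.957) and 0.04 (SE 0.22) without null replicate 2. Per base of annotated length, the ratio of En1 to En2 was 0.886, 0.875 and 0.622 in the null libraries, against 1.09, 0.961 and 0.838 in the heterozygous ones. The ratio in null replicate 2, where both genes were low, lay within the range of the other libraries.

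The paired-box genes split into different patterns. Pax2 was at 1.26, 3.26 and 3.54 CPM in null replicates 2, 4 and 10, against 7.64, 18.6 and 4.62 CPM in heterozygous replicates 6, 7 and 11. The groups did not overlap, and heterozygous replicate 7 stood above all other libraries. The log2 fold change of -1.91 (SE 0.63, 95% interval -3.45 to -0.37) had an unadjusted p of 0.0228 and an edgeR adjusted p of 0.639. It was -1.59 (SE 0.65, edgeR unadjusted p = 0.059, adjusted p = 0.911) without null replicate 2. Without heterozygous replicate 7 it was -1.18 (SE 0.39, edgeR unadjusted p = 0.0151, adjusted p = 0.9999).

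Pax2 and the Hox sums above had the same highest library, heterozygous replicate 7. Pax8, the paralog closest to Pax2 and Pax5, was at 0.355, 1.22 and 0.680 CPM in null replicates 2, 4 and 10, against 2.66, 5.32 and 1.88 CPM in heterozygous replicates 6, 7 and 11 (log2 fold change -2.08, SE 0.48, edgeR adjusted p = 0.441). Reads of the Y-linked gene Ddx3y were present in null replicate 2 (Pax2 at 1.26 CPM) and heterozygous replicates 6 and 11 (7.64 and 4.62 CPM). They were absent in null replicates 4 and 10 (3.26 and 3.54 CPM) and heterozygous replicate 7 (18.6 CPM). Since the groups did not overlap for Pax2, null is lower within any split of the libraries, so this split is no test. With the presence of Ddx3y as a term in the fit, the log2 fold change of Pax2 was -2.38 (SE 0.23, edgeR adjusted p = 0.00673). In that fit each Ddx3y class has a single library in 1 arm, null replicate 2 with the lowest Pax2 level and heterozygous replicate 7 with the highest, so the value rests on those libraries. Without both libraries, and without the term, it was -0.85 (SE 0.28, edgeR unadjusted p = 0.0144, adjusted p = 0.9999). Pax2 passed the adjusted threshold in no other setting. The summed level of 12 forebrain genes did not overlap between the groups, at 1821, 1565 and 1572 CPM in null replicates 2, 4 and 10, against 1356, 1266 and 1214 CPM in heterozygous replicates 6, 7 and 11. The part of regional tissue content in the Pax2 values was not tested.

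Pax5, which acts with Pax2 at the isthmus, was at 0.0394, 2.02 and 1.73 CPM in null replicates 2, 4 and 10, against 2.23, 2.12 and 2.11 CPM in heterozygous replicates 6, 7 and 11. The null libraries lay below the heterozygous ones, which averaged 2.15 ± 0.0686 CPM (SD, n = 3), but null replicate 4 only just. Its 95% counting interval (1.565 to 2.554 CPM) overlapped that of heterozygous replicate 11 (1.655 to 2.646 CPM). Null replicate 2 held 1 read. The counting interval of that library's value was 0.000997 to 0.220 CPM (95%, Clopper-Pearson, counting error only), below every other library. The fold change was -0.73 (SE 0.72, edgeR adjusted p = 0.906) and -0.20 (SE 0.24, adjusted p = 0.979) without that library. Per base of length, the ratio of Pax2 to Pax5 was 0.646 and 0.814 in null replicates 4 and 10, against 1.37, 3.50 and 0.874 in heterozygous replicates 6, 7 and 11. It is not given for null replicate 2, with its 1 Pax5 read. The predicted gene 5730488B01Rik, which lies antisense within Pax5, was likewise lowest in null replicate 2, at 0.197 CPM against 0.942 to 1.84 CPM elsewhere. Whether reads were counted by strand is not given in the sources used here. Without strand, reads of the overlapping genes would not be separable.

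Pax7, a marker of the dorsal midbrain and of the superior colliculus, went the other way. It was at 4.96, 8.24 and 9.73 CPM in null replicates 2, 4 and 10, against 5.33, 3.33 and 7.26 CPM in heterozygous replicates 6, 7 and 11. The groups overlapped, and heterozygous replicate 7, the highest library for Pax2, was the lowest for Pax7. The fold change was 0.52 (SE 0.31, edgeR adjusted p = 0.807), and 0.75 (SE 0.28, unadjusted p = 0.026, adjusted p = 0.812) without null replicate 2, where 3.5% of all genes tested were higher at an unadjusted p under 0.05. It was 0.82 (adjusted p = 0.438) without heterozygous replicate 11, 0.32 (adjusted p = 0.844) without null replicate 10 and 0.28 (adjusted p = 0.9999) without heterozygous replicate 7.

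The forkhead genes differed from each other in null replicate 2. Foxa1, a pioneer factor of the floor plate, was at 2.17, 3.62 and 2.79 CPM in null replicates 2, 4 and 10, against 4.44, 2.25 and 3.96 CPM in heterozygous replicates 6, 7 and 11. The groups overlapped, with null replicate 2 just below heterozygous replicate 7 (fold change -0.31, SE 0.28, edgeR adjusted p = 0.888). It was -0.12 without heterozygous replicate 6, -0.15 without null replicate 2, -0.52 without null replicate 4 and -0.55 without heterozygous replicate 7. Foxa2, its paralog in floor plate and dopamine neurons, had 0, 1.63 and 1.19 CPM in null replicates 2, 4 and 10, against 2.85, 0.909 and 0.826 CPM in heterozygous replicates 6, 7 and 11. The count of 0 in null replicate 2 allows up to 0.118 CPM, which is below the other 5 libraries, and heterozygous replicate 6 was the highest. The groups overlapped, and the fold change was -0.67 (SE 0.96, edgeR adjusted p = 0.948), -0.13 (SE 0.54) without null replicate 2 and 0.16 without heterozygous replicate 6.

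The LIM-homeodomain genes were less low in null replicate 2 than the engrailed genes. Lmx1a was at 3.27, 5.81 and 6.33 CPM in null replicates 2, 4 and 10, against 6.00, 6.06 and 6.32 CPM in heterozygous replicates 6, 7 and 11. Apart from null replicate 2, the libraries lay within 1.09-fold of each other, the narrowest range of the 10 genes (fold change -0.25, SE 0.23, edgeR adjusted p = 0.89, and -0.01, SE 0.17, 95% interval -0.39 to 0.37, without null replicate 2). Lmx1b, needed for dopamine and serotonin neurons, was at 0.670, 2.28 and 1.84 CPM in null replicates 2, 4 and 10, against 3.50, 4.14 and 1.99 CPM in heterozygous replicates 6, 7 and 11. Only null replicate 4 exceeded a heterozygous library, replicate 11. The fold change of Lmx1b was -0.98 (SE 0.40, 95% interval -1.89 to -0.07) with an unadjusted p of 0.0367 and an edgeR adjusted p of 0.666. Heterozygous replicate 7, with the high Hox sum, was the highest library for Lmx1b as well. The fold change was -0.63 (SE 0.32, adjusted p = 0.919) without null replicate 2 and -0.41 (SE 0.34, adjusted p = 0.9999) without both that library and heterozygous replicate 7. Per base of length, the ratio of Lmx1a to Lmx1b was 1.78, 0.930 and 1.26 in null replicates 2, 4 and 10, against 0.626, 0.534 and 1.16 in heterozygous replicates 6, 7 and 11, with overlap between the groups.

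Pitx3, which drives the terminal dopaminergic programme and also acts in the lens, was the least abundant of the 10. It was at 0, 0.830 and 0.782 CPM in null replicates 2, 4 and 10, against 0.915, 0.505 and 0.570 CPM in heterozygous replicates 6, 7 and 11, from at most 34 reads in a library. The 0 reads of null replicate 2 allow up to 0.118 CPM, and the other null libraries lay within the heterozygous range. The fold change was -0.26 (SE 0.71, edgeR adjusted p = 0.973), and 0.27 (SE 0.38, adjusted p = 0.982) without null replicate 2. Of 9 lens markers, Cryaa, Crygs, Mip and Lim2 did not exceed 0.427 CPM in any library. Cryab (4.53 to 6.77 CPM), Crybb1 (2.22 to 4.77 CPM), Bfsp1 (2.04 to 3.40 CPM), Crybb3 (0.808 to 1.29 CPM) and Bfsp2 (0.433 to 1.38 CPM) were present.

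**Figure D1:**
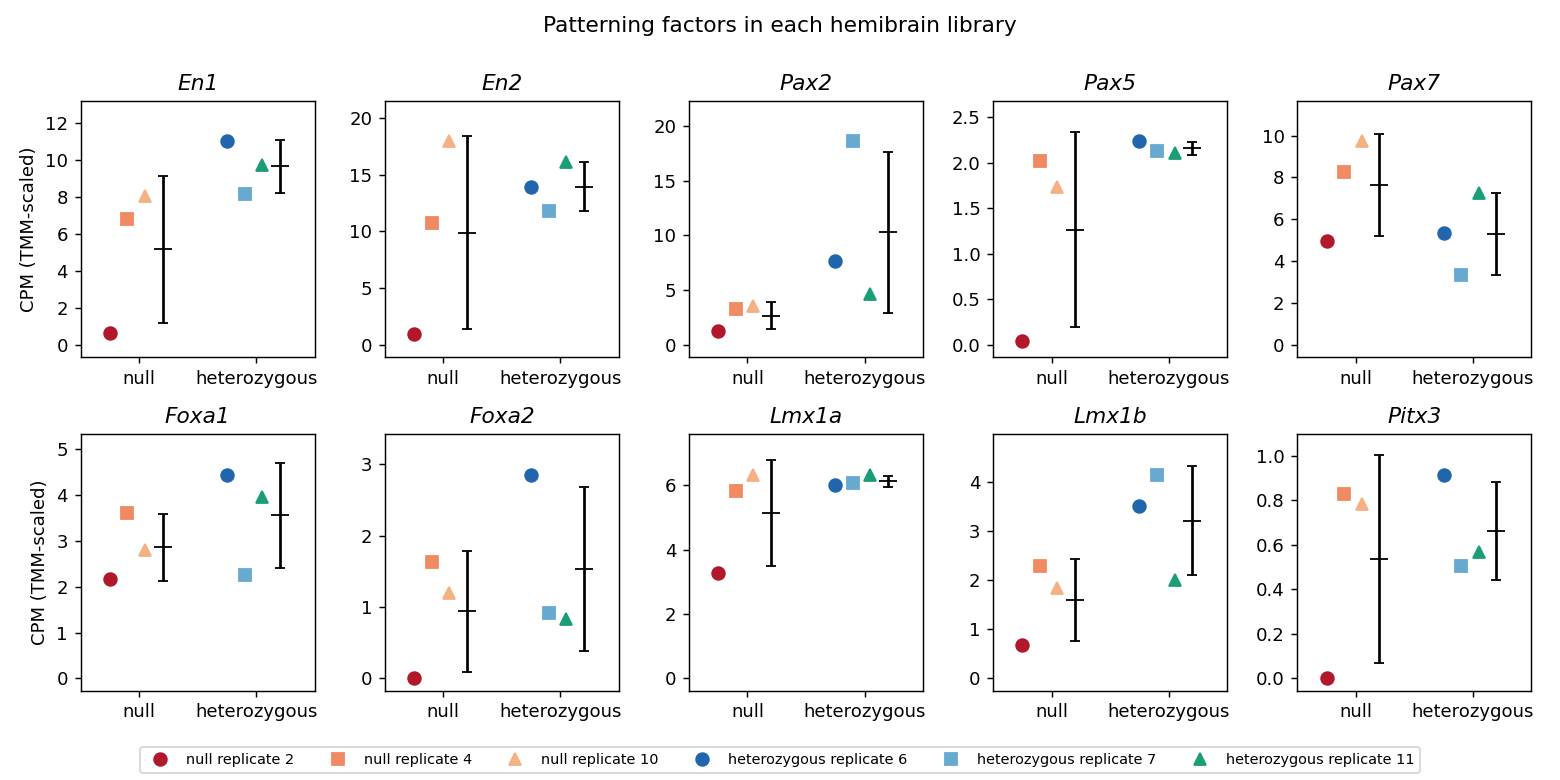
Level of each of the 10 genes in every library, in CPM with TMM scaling, with the null libraries on the left and the heterozygous ones on the right of each panel. Black bars give the mean ± SD (n = 3). Null replicate 2 is lowest for every gene but Pax7, and heterozygous replicate 7 is highest for Pax2 at 18.6 CPM.

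All 10 genes passed the low-count filter, and 0 passed edgeR's test in either direction, where 0.00628% of all 15925 genes tested were called lower and 0% higher. DESeq2 and limma-voom also called 0 of the 10, while DESeq2 called 0.157% of all genes lower and 0.245% higher. At an unadjusted p under 0.05 edgeR gave 2 of the 10 as lower, Pax2 and Lmx1b, and 0 as higher, against 2.93% and 4.13% of all genes. This count changed with single libraries. It was 0 lower and 1 higher (Pax7) without null replicate 2, against 2.11% and 3.5% of all genes. It was 0 and 0 without null replicate 10, and 1 lower and 0 higher without heterozygous replicate 6 or without heterozygous replicate 7. It was 2 and 0 without null replicate 4, and 2 and 1 without heterozygous replicate 11. Without both null replicate 2 and heterozygous replicate 7 it was 2 and 0. The edgeR unadjusted p of Pax2 was 0.059 without null replicate 2 and 0.057 without null replicate 10. It was under 0.05 without any other single library. With library size alone in place of TMM factors, 16.7% of all genes under that unadjusted p were higher, against 58.5% with TMM. Fold changes were negative for 9 of the 10, against 50.3% of all genes, and their median was -0.58, against -0.001 over all genes. The groups did not overlap, with null lower, for En1, Pax2 and Pax5, which is 3 of 10, against 6.47% of all genes. They did not overlap with null higher for 0 of 10, against 6.21% of all genes. The genes share their libraries, so these counts are not independent of each other. Without null replicate 2 the median was -0.14 and 7 of the 10 were negative.

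**Figure D2:**
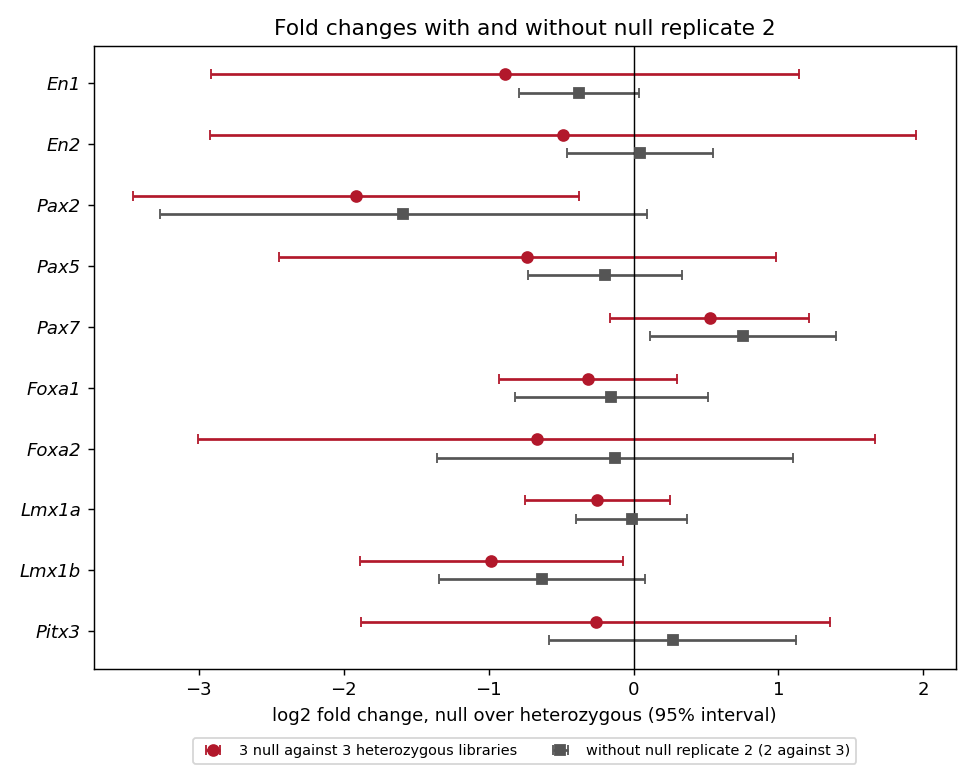
Log2 fold change of null over heterozygous libraries for each gene, with its 95% interval from edgeR's quasi-likelihood fit. Circles use all 6 libraries and squares leave out null replicate 2. The interval of En2 runs from -2.92 to 1.95 with all libraries and from -0.46 to 0.55 without null replicate 2.

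Null replicate 2 was the lowest of the 6 libraries for 9 of the 10 genes, as it was for 20.9% of all genes tested. Summed over the 10, it held 355 reads or 14.0 CPM. The sums were 45.3 and 53.9 CPM in null replicates 4 and 10, against 57.8, 57.9 and 53.5 CPM in heterozygous replicates 6, 7 and 11. A threshold of 20% of the median of the other 5 libraries, chosen after the values were seen, separated the genes within null replicate 2. En1, En2, Pax5, Foxa2 and Pitx3 lay below it, which is 5 of 10, against 0.408% of all genes tested. En1 was at 7.71% of that median, En2 at 7.07% and Pax5 at 1.87%. Pax2 at 27.3% and Lmx1b at 29.4% lay just above the threshold, and Lmx1a at 54.0%, Foxa1 at 59.9% and Pax7 at 68.3% further above it. The promoter windows of En1, Pax5, Foxa2 and Pitx3 are those printed above. No member lay below the threshold in any of the other 5 libraries (0 of 10 in each, against 0.0565% to 0.126% of all genes tested). As the threshold was chosen after the values were seen, this contrast between libraries is a description and not a test. In hemibrain tissue, fewer cells of a type and less RNA per cell cannot be told apart.

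**Figure D3:**
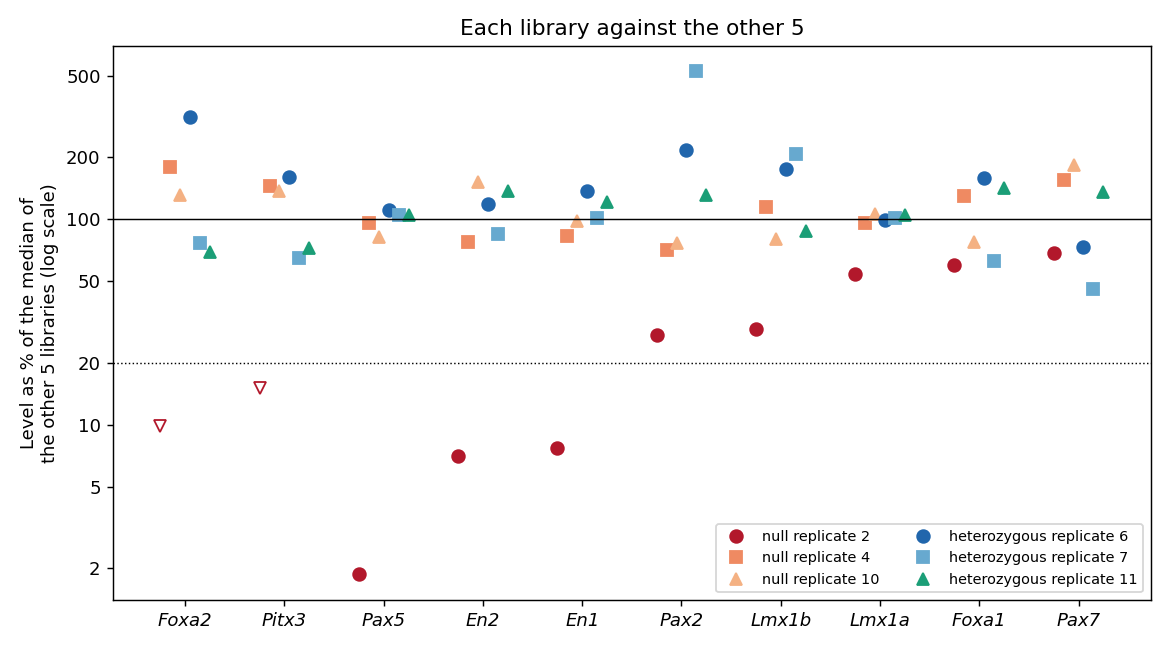
Level of each gene in a library as a percentage of its median over the other 5 libraries, on a log axis, with genes ordered by the value of null replicate 2. Open triangles are upper limits for 0 reads (3 counts of the library), and the dotted line is at 20%. The symbols of null replicate 2 fall below that line for 5 genes.

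Of all 15925 genes tested, 65 lay below 20% in null replicate 2, against 9 to 20 genes in each of the other libraries. They include 17 genes of the regional and cell type lists other than the 10. Among them, named after their values were seen, were the dopamine transporter Slc6a3 (12.03%), the retinaldehyde dehydrogenase of ventral dopamine neurons Aldh1a1 (17.2%), the serotonergic genes Tph2 (13.9%) and Fev (4.50%), and the brainstem factor Phox2a (5.12%). The isthmic gene Cnpy1 (19.8%), the midbrain GABAergic factor Tal2 (12.1%) and the rhombic-lip factor Atoh1 (5.32%) were also among them. Most tested genes of the lists that hold them did not lie below 20%. Below it were 3 of 20 dopamine neuron genes, En1 among them (list median 75.9%), and 2 of 8 serotonergic genes (60.2%). Of floor plate genes it was 3 of 17 (80.7%), of isthmic genes 2 of 13 (108%) and of hindbrain genes 3 of 11 (31.8%). Of tectal genes it was 1 of 22 (52.6%) and of cerebellar genes 1 of 15 (74.7%). Of 12 forebrain genes, 0 lay below 20%, and their median was 132%. The part of regional tissue content in the values of null replicate 2 was not tested.

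Divided by gene length, the mean level over the 6 libraries was highest for En2 (3.37 CPM per kilobase) and En1 (2.90), followed by Pax2 (2.14), Lmx1b (1.97) and Lmx1a (1.69). Pax7 (1.51), Pax5 (1.41), Foxa1 (1.005), Foxa2 (0.521) and Pitx3 (0.436) were lower. The ranges over libraries of neighbours in this order overlapped in every case, with null replicate 2 included. Within libraries, Foxa1 lay above Foxa2 in 6 of 6, with a ratio of 1.65 and 1.74 in null replicates 4 and 10, against 1.16, 1.84 and 3.56 in heterozygous replicates 6, 7 and 11, and with 0 Foxa2 reads in null replicate 2. En2 lay above En1 in 5 of 6 libraries and Pax5 above Foxa1 in 5 of 6, and the other neighbours kept their order in 1 to 4 of 6. En2 was the highest of the 10 per kilobase in null replicates 4 and 10 and heterozygous replicate 11, and En1 in heterozygous replicate 6. The order differed in the libraries that stand apart, with Pax7 highest in null replicate 2 (1.16 CPM per kilobase) and Pax2 in heterozygous replicate 7 (6.14 CPM per kilobase).

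The genes of midbrain dopamine neurons gave mostly negative fold changes and no call. Of 20, En1 among them, 17 were negative with a median of -0.37, 0 passed edgeR's test, and at an unadjusted p under 0.05, 2 were lower and 1 was higher. Nr4a2, a nuclear receptor required for dopamine neurons and also expressed in cortex, was at 49.3, 51.3 and 50.5 CPM in null replicates 2, 4 and 10, against 32.5, 39.6 and 38.2 CPM in heterozygous replicates 6, 7 and 11 (0.45, SE 0.10, edgeR adjusted p = 0.368). Its null libraries all lay above the heterozygous ones, null replicate 2 included. Ret, the receptor subunit for GDNF, was at 17.2, 27.8 and 20.2 CPM in null libraries, against 33.6, 44.4 and 28.0 CPM in heterozygous ones (-0.70, SE 0.21, adjusted p = 0.527).

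Genes of dopamine handling, named after their values were seen, differed in null replicate 2. Slc6a3 was at 1.103, 7.73 and 6.83 CPM in null replicates 2, 4 and 10, against 10.4, 9.49 and 9.17 CPM in heterozygous replicates 6, 7 and 11. Th, the rate-limiting enzyme of dopamine synthesis, was at 4.65, 8.80 and 5.54 CPM in null libraries, against 11.9, 7.17 and 6.92 CPM in heterozygous ones. The vesicular transporter Slc18a2 was at 23.6, 26.3 and 17.9 CPM in null libraries, against 28.6, 22.4 and 21.5 CPM in heterozygous ones, so null replicate 2 was not low for it. Summed over the dopamine list, the level was 378, 442 and 413 CPM in the null libraries, against 482, 516 and 447 CPM in the heterozygous ones. Ebf3, the highest of the list per kilobase, held 44.75, 73.7 and 89.1 CPM of this in null libraries. In heterozygous ones it held 77.3, 109.5 and 93.5 CPM. Slc6a3 and Th are a small part of the sum, so it is not a level of the dopamine handling genes.

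Most genes of the isthmic list were not low in null replicate 2, where their median was 108% of the other libraries, with Pax8 and Cnpy1 below 20%. How far the genes of this list read isthmic tissue in a hemibrain at birth was not tested. Of 13 tested genes, 6 were negative and 7 positive, the median was 0.04, and 0 passed edgeR's test (1 lower and 2 higher at an unadjusted p under 0.05). Otx2, which positions the isthmus by its posterior border and is also expressed in choroid plexus, was at 18.4, 15.8 and 22.9 CPM in null replicates 2, 4 and 10, against 15.1, 15.4 and 20.8 CPM in heterozygous replicates 6, 7 and 11. Wnt1, the WNT signal of the isthmus, named after its values were seen, was at 0.985, 1.07 and 0.578 CPM in null libraries, against 1.16, 0.976 and 0.541 CPM in heterozygous ones. The FGF feedback phosphatase Dusp6 averaged 38.3 ± 2.51 CPM in null libraries and 28.9 ± 1.153 CPM in heterozygous ones (SD, n = 3 each), with a fold change of 0.41 (SE 0.10, edgeR adjusted p = 0.441). Fgf8 had 1 to 9 reads in a library and was not tested.

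Floor plate and tectal genes gave no call. Of 17 floor plate and ventral progenitor genes 13 were negative (median -0.18), and at an unadjusted p under 0.05, 3 were lower and 1 was higher. Nkx6-1, a ventral patterning factor, was at 0.473, 1.93 and 1.36 CPM in null replicates 2, 4 and 10, against 4.28, 5.08 and 2.79 CPM in heterozygous replicates 6, 7 and 11, without overlap (-1.66, SE 0.41, edgeR adjusted p = 0.482). Of 22 tectal and other midbrain genes 13 were negative (median -0.08), with 2 lower and 1 higher at that p. Meis1, a TALE homeodomain factor, averaged 21.4 ± 1.44 CPM in null libraries and 32.9 ± 6.08 CPM in heterozygous ones (-0.62, SE 0.14, edgeR adjusted p = 0.368). Of these lists 0 genes passed edgeR's test.

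Neighbouring regions gave the following values. Of 11 tested hindbrain genes 9 were negative (median -1.97) with 7 lower at an unadjusted p under 0.05, and of 8 serotonergic genes 7 were negative (median -0.23) with 1 lower. Of 15 tested cerebellar genes 10 were negative (median -0.26) with 2 lower and 4 higher at that p. Of 12 forebrain genes 11 were positive (median 0.32) with 7 higher, and of 13 diencephalic genes 8 were positive (median 0.006) with 1 lower. None of these genes passed edgeR's adjusted test (0 in each list).

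**Figure D4:**
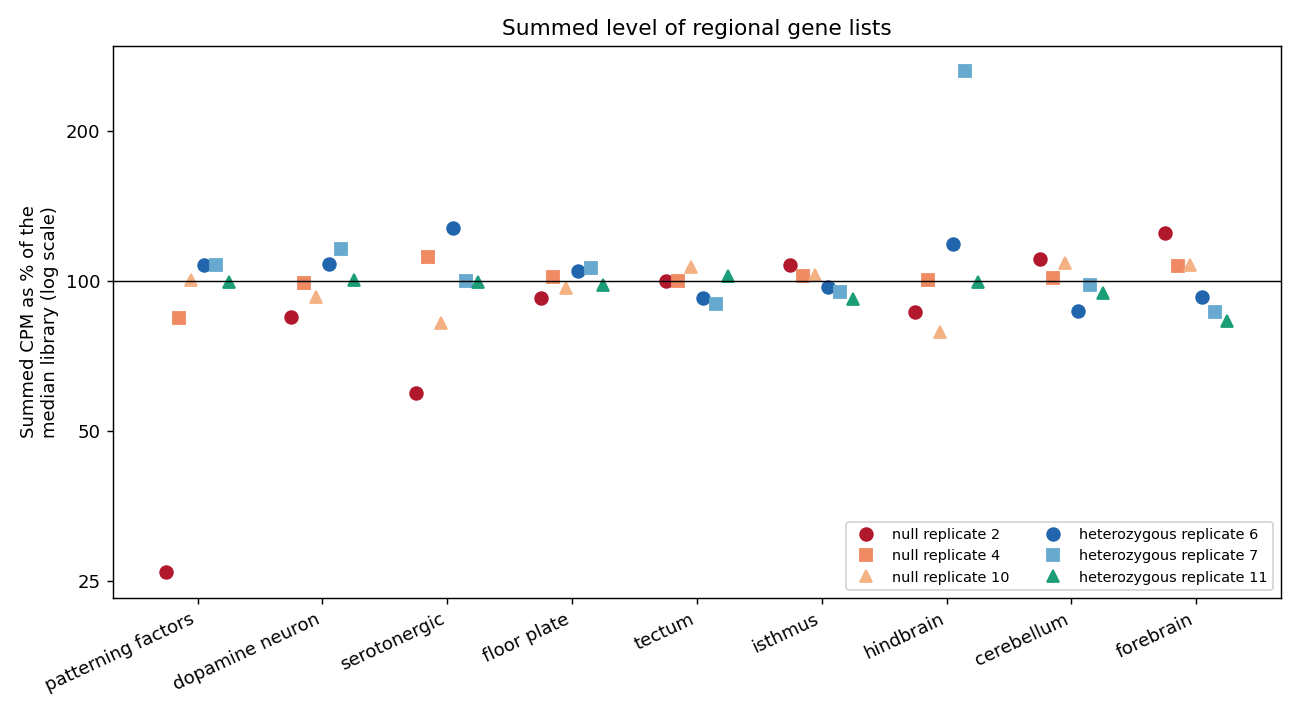
Summed CPM of each regional gene list in every library, as a percentage of the list's median library, on a log axis. The sum of the 10 patterning factors is 14.0 CPM in null replicate 2 and 45.3 to 57.9 CPM in the others, and the hindbrain sum is 133 CPM in heterozygous replicate 7 and 39.8 to 59.9 CPM in the others.

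Relatives of the 10 genes were mixed. Of the other Pax genes 3 were tested and all 3 were negative, with Pax6, of forebrain progenitors and the cerebellum, at 34.0 ± 3.23 CPM in null libraries and 38.2 ± 2.41 CPM in heterozygous ones (SD, n = 3 each). Pax3, a dorsal neural tube factor, was at 1.26, 3.14 and 4.76 CPM in null replicates 2, 4 and 10, against 4.55, 4.61 and 4.30 CPM in heterozygous replicates 6, 7 and 11 (-0.54, SE 0.36, edgeR adjusted p = 0.842). It too was lowest in null replicate 2, at 27.7% of the median of the others. Of 11 LIM-homeobox and Pitx relatives 5 were negative and 6 positive. Lhx3, of motor neurons and the pituitary, had 0, 0.207 and 0.0340 CPM in null replicates 2, 4 and 10, against 0.915, 1.18 and 0.456 CPM in heterozygous replicates 6, 7 and 11 (-3.19, SE 0.69, edgeR adjusted p = 0.368).

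Several of the 10 genes are also expressed outside the brain, so markers of those tissues were read. Of 12 skeletal muscle markers 7 were tested, summing to 11.1, 14.0 and 14.7 CPM over the whole list in null replicates 2, 4 and 10, against 15.9, 17.1 and 15.5 CPM in heterozygous replicates 6, 7 and 11. The sum includes Pax3, and the muscle-defining factor Myod1 had 1 to 4 reads in a library. Of 9 B cell markers 2 were tested, Ebf1 and Blnk. The B cell sum, mostly Ebf1, was 34.0 to 46.1 CPM in null libraries, against 40.1 to 58.7 CPM in heterozygous ones. Of 12 endoderm markers 7 were tested, with Pdx1 and Cdx2 at 0 in all 6 libraries and Alb at up to 3 reads. The endoderm sum was 30.8 to 41.8 CPM in null libraries, against 33.0 to 40.0 CPM in heterozygous ones. Of 10 inner ear and kidney markers 6 were tested and Umod was at 0 throughout, while Pax8 belongs to that list too. The sum, mostly Otof, was 27.2 to 35.6 CPM in null libraries, against 36.7 to 50.1 CPM in heterozygous ones. Otof averaged 26.5 ± 4.72 CPM in null libraries and 34.7 ± 4.52 CPM in heterozygous ones (SD). Of the lens markers 6 were tested, summing to 12.8 to 15.6 CPM in null libraries, against 13.8 to 16.1 CPM in heterozygous ones. The part of these tissues in the values of the 10 genes was not tested. Choroid plexus and roof plate markers summed to 834, 575 and 718 CPM in null libraries, against 607, 860 and 604 CPM in heterozygous ones, a range that overlapped between the groups.

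Across the 6 libraries, the genes most like each member were sought by Pearson's r of log2 CPM among 13659 other genes, as a description over few libraries. The partners were picked for the highest r. Values without null replicate 2 reuse the remaining libraries of that search, so they are no separate test. En1 was closest to Lingo3 (r = 0.995), Aldh1l1 and Irx3, and En2 and Lmx1a were both closest to Irx5 (r = 0.995 and 0.996). Irx5, an Iroquois factor of midbrain and posterior forebrain, was at 2.72, 8.0 and 9.21 CPM in null replicates 2, 4 and 10, against 8.98, 8.45 and 10.2 CPM in heterozygous replicates 6, 7 and 11. Without null replicate 2, r was 0.962 for En1 with Lingo3, and with Irx5 it was 0.831 for En2 and 0.862 for Lmx1a. Pax5 was closest to the noradrenaline transporter Slc6a2, to Slc6a3 and to Atp6ap2 (r = 0.994, 0.992 and 0.992). Without null replicate 2 these values were 0.955, 0.948 and 0.634. Foxa2 and Pitx3 were both closest to Nkx2-4 (r = 0.993 and 0.989, and 0.906 and 0.83 without null replicate 2). Pax2 was closest to Spata20, Pax7 to Eepd1, Foxa1 to Zpbp and Lmx1b to Morf4l1. Without null replicate 2 their r was 0.993, 0.999, 0.969 and 0.982. Over the 45 pairs among the 10 genes the median r was 0.723 with all 6 libraries and 0.06 without null replicate 2, and 43 pairs had a positive r with all libraries, against 25 without it.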

How the data were processed

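Hemibrain RNA from newborn mice was compared between null (n = 3) and heterozygous (n = 3) libraries. The authors deposited raw read counts by gene symbol, beside gene lengths in bases. The labels' protocols name TRIzol extraction and a kit for stranded total RNA, but the molecule field names poly(A) RNA. The submitters' processing notes list, without roles, the builds mm9 and hg19 and the tools MACS2, bedtools, Picard, STAR, cutadapt and CASAVA. How reads were assigned to genes, by which annotation and strand, was not given in the sources used here. Coordinates of promoters are those of GRCm38.p6 and apply to no count.

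Genes kept by filterByExpr (15925) were tested with edgeR 4.0.16 in R 4.3.3, by the quasi-likelihood test (TMM factors, robust dispersion), with a threshold of 0.05 on Benjamini-Hochberg adjusted p. Each SE is the size of a fold change over the root of its F statistic. Counting intervals and limits cover counting error only. Alternatives used limma 3.58.1, DESeq2 1.42.0, other factors, filters and a Y-linked term, and left out each library. Tests were tried on simulated counts. The smallest pairwise chi-square per gene between libraries was 12.8, so no pair agreed within sampling noise. Limits for 0 reads are 3 counts. The members and lists were chosen with earlier results of these data known. All 217 list genes were found in the table. Named were all members, per list the 3 genes highest per kilobase and the 2 with the smallest p, and per member the 3 most correlated genes, from which examples are printed. Others are said to be named after their values were seen, save the defining markers of other tissues and overlapping or library-check genes. Some genes that the rule or the lists hold are not reported here.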

Additional observations from a re-analysis of the deposited data

How the results depend on the processing

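No paired analysis was possible because the groups share no pup number. Under the 17 alternatives no member passed, except Pax2 with the Y-linked term (1 member lower), a fit with a single library in 1 arm of each class. The fold change of En1, Pax2, Pax5, Foxa1, Lmx1a and Lmx1b was negative and that of Pax7 positive in every alternative. En2 was at 0.042 and Pitx3 at 0.27 without null replicate 2, and Foxa2 at 0.16 and Pitx3 at 0.05 without heterozygous replicate 6. Without single libraries the fold change of En2 ran from -1.21 to 0.042, that of Foxa2 from -1.32 to 0.16 and that of Pitx3 from -0.71 to 0.27. It ran from -1.34 to -0.38 for En1, -2.27 to -1.18 for Pax2, -1.23 to -0.20 for Pax5, 0.28 to 0.82 for Pax7, -0.55 to -0.12 for Foxa1, -0.42 to -0.01 for Lmx1a and -1.33 to -0.63 for Lmx1b. Pitx3 was at 0.12 without both null replicate 2 and heterozygous replicate 7 (chosen after seeing the data). The members' median was -1.26 with limma-voom, -1.24 with the Y-linked term, -0.30 without both those libraries, and -0.92 to -0.14 without single libraries. Pitx3 was not tested with a CPM minimum. The cause of these shifts was not tested.

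Over all genes, 1 was called lower and 0 higher. Lower calls were 0 with DESeq2 size factors, a CPM minimum, limma-voom, no robust dispersion or structural RNAs removed, 2 with upper-quartile factors, library size alone or no filter, 4 without both libraries, 10 with the Y-linked term, 25 with DESeq2 and 0 to 1 without single libraries. Higher calls were 1 without a filter or without both libraries, 39 with DESeq2 and 0 to 3 without single libraries. At an unadjusted p under 0.05 the count was 1124, against 492 without both libraries and 599 to 1554 without single libraries. Of these, 58.5% were higher. That share was 47.3% under upper-quartile scaling and 16.7% when libraries were scaled by total counts, which put the median of all genes at -0.09. With 0 to 34 reads, Pitx3 limits what could be detected.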
